A study of Mus musculus with 8 samples.

Results

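The cells described here are the 1571 cells of the DN4 sort that the deposited cell annotation places in cluster 2 of its coarse clusters, 595 in the WT library and 976 in the KI library. They were chosen by that annotation alone, out of 4054 DN4 cells and 10237 cells of the whole series, which is 40.3% of the WT DN4 library (37.8% to 42.8%, the exact 95% binomial limits) and 37.9% of the KI DN4 library (36.0% to 39.8%). The study compared thymocytes of C57BL/6J mice (WT) with thymocytes of knock-in mice (KI) labelled GSK3B Ser389Ala KI, in which alanine replaces a serine of the kinase GSK3B that can be phosphorylated. Magnetic beads removed cells bearing CD4, CD8, CD11b, immunoglobulin kappa or MHC class II, and DN4 cells (CD44-CD25-) were then sorted from the remaining double-negative thymocytes. No antibody against a γδ receptor is named in that protocol. Each genotype gave 1 5′ single-cell expression library and 1 αβ receptor library of DN4 cells, the age and number of mice are not stated, and 1 library per genotype leaves no replicate, so no p-value is given and intervals cover counting error only. Cluster 2 was almost limited to the DN4 sort, with 0 cells in the WT library and 2 cells in the KI library of the sorted DN3 stage (CD44-CD25+).

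T cells with a γδ receptor arise in the thymus from the same double-negative precursors as αβ T cells, but rearrange their γ and δ loci instead of passing through the pre-T cell receptor and β-selection. Some acquire an effector programme before they leave the thymus: γδ cells with the transcription factors Sox13 and Maf are known as sources of interleukin 17, whereas cells with Zbtb16 (PLZF) resemble invariant NKT cells and make interleukin 4. Since the δ locus lies inside the α locus, rearrangement of α deletes δ on the same chromosome.

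UMI counts were summed over the cells of a set within a library and scaled to a common total (CPM), and a gene was called higher or lower where its CPM differed at least 2-fold the same way in both libraries. A gene entered a comparison with 20 CPM or more in either set of cells of both libraries. Cells of cluster 2 held a median of 5252 UMIs in WT and 4298 in KI, close to cluster 5 (4508 and 3768) and far under the cycling clusters 3 and 4 (20697 and 19436). Of all DN4 cells 20 in WT and 44 in KI were called doublets by Scrublet, run here on each library, of which 2 and 3 lay in cluster 2. The 2 DN4 libraries shared 3 cell barcodes, 1 of them in cluster 2 of both.

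The 5 genes used as γδ T cell markers were all higher in cluster 2 than in the large clusters 3, 4 and 5 of the sort, and were also read in the small clusters 7 and 8. Trdc, the δ constant region (GRCm38 chromosome 14, 54142851 to 54148868, plus strand), stood at 567 CPM in WT and 498 in KI cluster 2 cells. In cluster 3 it stood at 187 and 145, in cluster 4 at 128 and 124, and in cluster 5 at 24.2 and 33.3. Its level in cluster 2 was thus above clusters 3, 4 and 5 in both libraries, and clusters 3 and 4, which carry β chains, kept more of it than cluster 5. Sox13, a transcription factor of the γδ lineage on chromosome 1, stood at 167 and 111 CPM against 3.38 to 4.43 in WT and 2.48 to 5.56 in KI cells of clusters 3 and 4, and 0.605 and 0.707 in cluster 5. Maf, a transcription factor of the interleukin 17 programme, stood at 112 and 86.1 CPM in cluster 2 and at most at 1.21 in clusters 3, 4 and 5 of either library. The unconventional myosin Myo6 stood at 236 and 150 CPM and at most at 4.24 in those clusters. The δ variable segment Trdv5 stood at 517 and 388 CPM, against 13.5 to 25.8 in clusters 3, 4 and 5. Cluster 7, of 22 WT and 75 KI cells with none in G1, stood between, with Trdc at 322 and 240 CPM, Trdv5 at 229 and 151, Myo6 at 94.9 and 99.3, Sox13 at 50.1 and 63.5 and Maf at 0 and 11.3. In cluster 8, of 25 and 16 cells, Sox13 (324 and 156 CPM, from 12 and 3 UMIs), WT Maf (162, from 6 UMIs) and KI Trdc (623, from 12 UMIs) stood above cluster 2. The annotated spans of Trdc and Trdv5 overlap on opposite strands, and whether the counting used strand is not given in the sources used here.

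**Figure D1:**
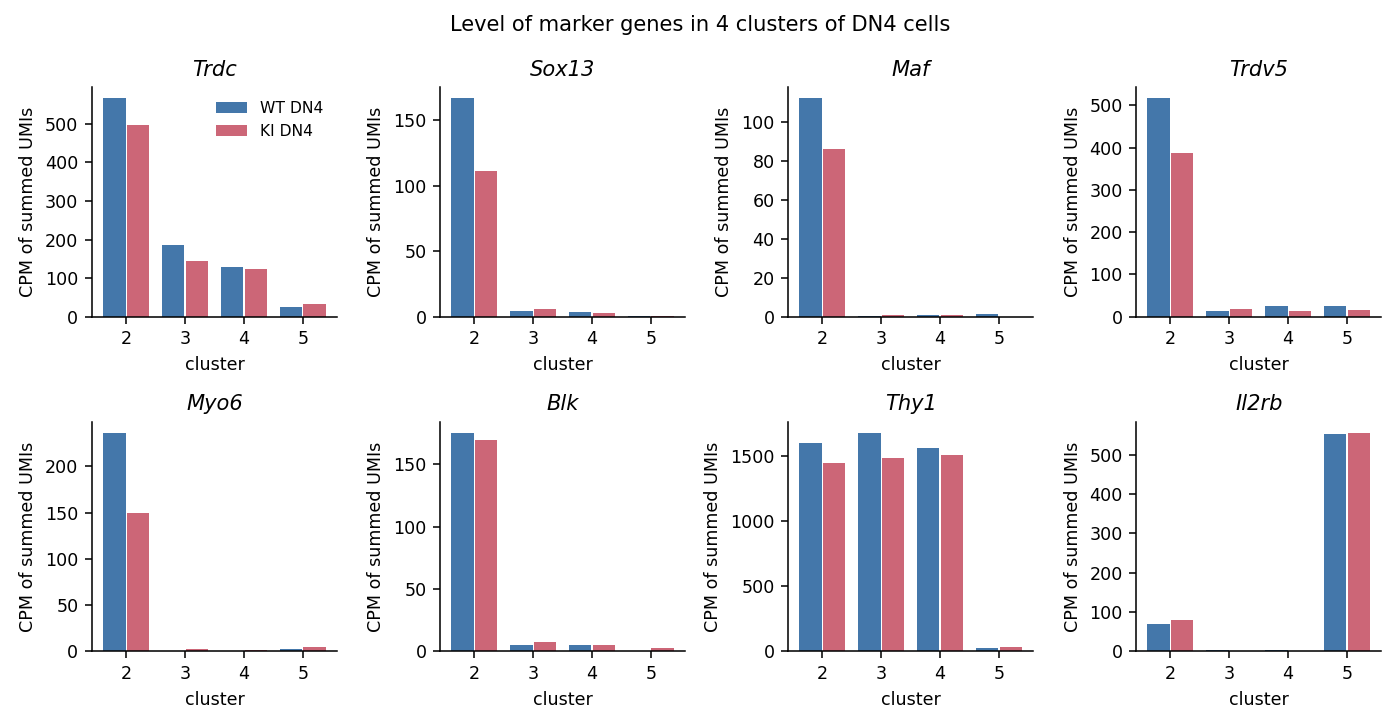
Level of 8 genes, as CPM of the UMIs summed over all cells of a cluster (y axis, from 0), in clusters 2, 3, 4 and 5 (x axis) of the WT (blue) and KI (red) DN4 library. Trdc, Sox13, Maf, Trdv5, Myo6 and Blk are highest in cluster 2, Thy1 is near 0 only in cluster 5 (23.6 and 33.3 CPM), and Il2rb is highest there (554 and 556 CPM).

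To set depth aside, each cell was thinned to 3000 UMIs, which left out 39 WT and 194 KI cells of cluster 2. A Trdc UMI then remained in 70.9% of WT (66.9% to 74.6%) and 66.8% of KI cells (63.3% to 70.0%) of cluster 2, against 85.4% and 76.3% without thinning. The same share was 32.8% and 27.2% in clusters 3 and 4, and 4.53% and 5.05% in cluster 5. Without thinning it was 74.4% and 67.6% in the deeper cells of clusters 3 and 4, and 5.86% and 7.01% in cluster 5. Most cells of cluster 5 carry α and β receptor contigs, and this cluster serves as background. A Sox13 UMI was found in 33.6% and 26.3% of thinned cluster 2 cells, a Maf UMI in 28.1% and 21.9%, a Trdv5 UMI in 25.5% and 22.5%, and a Myo6 UMI in 17.4% and 12.1%. In clusters 3 and 4 the shares of these 4 genes ran from 0 to 4.89% and in cluster 5 from 0 to 1.89%. At 3000 UMIs Trdc was thus read in most cells of cluster 2, and each of the other markers in a minority.

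Of 5979 genes compared with all other DN4 cells, 978 were higher (16.4%) and 719 lower (12.0%) in cluster 2. The γ and δ receptor genes were higher without exception among the 16 that could be compared, of 31 in the matrix and 43 listed, with a median log2 ratio of 2.84 against 0.14 over all genes. They comprised Trdc, the δ segments Trdv1, Trdv2-2, Trdv5 and Trdj1, 4 segments shared between the α and δ loci, the γ constant regions Tcrg-C1, Tcrg-C2 and Tcrg-C4, and the γ variable segments Tcrg-V1, Tcrg-V4, Tcrg-V7 and Trgv2. Among genes of γδ cells that make interleukin 17, 12 of 15 were higher and 0 lower. They included Rora, Blk (a Src family kinase, 175 and 170 CPM against 6.46 and 9.41), and the scavenger receptors Cd163l1 (115 and 73.4 against 6.62 and 4.27) and 5830411N06Rik (481 and 425 against 25.4 and 19.8). Il17f, an interleukin 17 transcript, was at 0 UMIs in cluster 2 of both libraries. Il17a, Il22 and Ccr6 were listed but are not among the genes of the matrix, so they could not be read.

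Outside these lists the strongest differences were in Sdc4, a heparan sulfate proteoglycan, with 37.4 and 28.3 CPM against 0.867 and 0.396, the chemokine receptor Ccr8 with 195 and 135 against 3.31 and 3.28, and the mast cell protease gene Cpa3 with 172 and 94.7 against 3.70 and 3.56. Igfbp4, a secreted binding protein of insulin-like growth factors, reached 794 and 781 CPM against 26.5 and 34.0. The receptor Ccr4 (58.4 and 43.5 against 3.31 and 2.41), the peptide transporter Slc15a1, Spsb1, Nav2 and B630019A10Rik were also among the 15 highest. Chemokine receptors and adhesion molecules as a list were higher for 12 of 14 genes, and all 10 genes of mature T cells were higher, such as S1pr1 and Klf2.

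The genes lowest in cluster 2 belonged to the pre-T stage and to the cell cycle. Ptcra, the invariant chain of the pre-T cell receptor, stood at 0.269 and 0.390 CPM against 90.3 and 75.0, and the recombinase gene Rag1 at 0.538 and 0.390 against 41.0 and 36.6. Ccna2, Aurkb, Pbk, Esco2, E2f8 and Mxd3 made up the rest of the 8 lowest, and all 12 listed cycling genes were lower (median log2 ratio −3.86). In the deposited phase calls 90.1% of WT and 91.8% of KI cluster 2 cells were in G1, against 40.9% and 21.2% of the other DN4 cells, and the counts moved when G1 cells alone were compared: 217 genes were then higher (180 of them among the 978) and 227 lower (48 among the 719). Weighing each cell alike gave 483 higher genes, 45.5% of those called. With trimmed-mean scaling (TMM) the median of all genes moved from 0.14 to −0.16, and the share of called genes that were higher from 57.6% to 37.7%.

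Against clusters 3 and 4, the β-selected cells at which a DN4 sort aims, 1247 of 5999 genes were higher (20.8%) and 821 lower (13.7%). The 5 γδ T cell markers and 16 of 16 receptor genes were among those higher, as were 13 of 14 genes of T cell receptor signal strength. S1pr1, the receptor by which mature thymocytes leave, stood at 161 and 135 CPM against 1.05 and 0.616. Further genes with the largest ratios were the surface protein Cd53 (510 and 422 against 6.13 and 5.37), Gimap3, Gimap4, Samhd1, Itgae, Chn2, S100a4 and Gm45552. Zbtb16 stood at 29.3 and 31.0 CPM against 0 and 0.264. With TMM scaling the median over all genes moved from 0.17 to −0.22, the number of lower genes to 1351, and the share of called genes that were higher from 60.3% to 38.4%. Among G1 cells alone, of which clusters 3 and 4 held 24 and 22, 638 genes were higher and 221 lower, so that 74.3% of the called genes were higher.

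Cluster 5 was the nearest population by depth and phase, with 95.1% and 89.0% of its cells in G1, and the 2 clusters differed in fewer genes: 265 of 5976 were higher in cluster 2 (4.43%) and 270 lower (4.52%). Gzma, the serine protease granzyme A, stood at 2312 and 2955 CPM in cluster 2 and at 1.21 and 9.20 in cluster 5. It was also read in clusters 3 and 4 (1162 and 899 in cluster 3), so that cluster 5 was the population that lacked it. Thy1, the pan-T surface protein, stood at 1599 and 1444 CPM against 23.6 and 33.3, and the chemokine receptor Ccr9 at 1170 and 995 against 33.9 and 25.5. Tnfsf11, the RANK ligand, stood at 402 and 220 against 3.02 and 6.37. Endou, Gpr25, Gfra1 and Slc16a5 completed the highest genes beside Sox13, Maf, Myo6, Blk, Cpa3 and the scavenger receptors. Of 15 interleukin 17 programme genes, 13 were higher and 1, Lmo4, lower.

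Of the genes of interferon-making γδ cells, none of the 9 compared was higher than in cluster 5 and 5 were lower: Il2rb (69.7 and 78.9 CPM against 554 and 556), Cd160, Klrd1, and the chemokine genes Xcl1 (0.807 and 1.76 against 103 and 151) and Ccl5 (1.88 and 5.08 against 230 and 237). Of 17 genes of receptor signal strength 7 were lower and 0 higher, among them Egr1, Egr2 and Nr4a2, immediate early genes of antigen receptor signalling. The complement-related gene C1ql3, the integrin chain Itgb8, the claudin Cldn10, Myl1, Chadl and 2610204G07Rik made up the rest of the 8 lowest. Tbx21 and Eomes, the transcription factors of interferon programmes, were near 0 in cluster 2, at 0 and 0.390 CPM for Tbx21 and 0.538 and 0.390 for Eomes.

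Among markers of other cell types, the 8 genes of NK and innate lymphoid cells summed to 2347 and 2989 CPM in cluster 2 against 334 and 371 in cluster 5, of which Gzma made up 2312 and 2955. The 3 stromal genes summed to 104 and 109 CPM against 72.5 and 75.7 in cluster 5 and 36.4 and 41.1 in clusters 3 and 4. The part of such cells in the results was not tested. The single erythroid gene in the matrix was at 0. Of 4 B cell genes, Ighm stood at 419 and 347 CPM in cluster 2 and at 396 and 347 in cluster 3, and Cd79b at 37.7 and 49.0; of 7 myeloid and dendritic genes, 1 was at 0 in WT and 5 in KI, and their summed level was 139 and 151 CPM against 160 and 166 in cluster 5. Trbc1, a β constant region, stood at 1320 and 813 CPM in cluster 2 and at 402 and 288 in cluster 3, while the α constant region Trac stood at 101 and 107 against 325 and 258 in cluster 5.

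A productive β chain (TRB) contig was assembled for 111 of 595 WT cells of cluster 2 (18.7%, 15.6% to 22.0%) and 182 of 976 KI cells (18.6%, 16.3% to 21.2%). In clusters 3 and 4 the share was 95.1% and 94.9%, and in cluster 5 it was 89.8% and 89.9%. A productive α chain (TRA) contig was found in 31 WT cells (5.21%, 3.57% to 7.31%) and 61 KI cells (6.25%, 4.81% to 7.96%), against 83.0% and 80.8% in cluster 5. Among the 3086 and 5526 contigs of the DN4 receptor libraries 1 was of a δ chain and 0 of a γ chain, so γδ receptors were read in the expression libraries only. Cluster 2 thus had high β constant transcripts and few cells with a productive β contig.

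The γδ receptor segments in use were read from the V segments of the expression libraries. A cell was assigned to a segment that held over 50% of its γ or δ V UMIs, with at least 2 such UMIs. Summed γ V segments stood at 1667 and 1444 CPM in cluster 2, at 193 and 250 in cluster 5 and at 288 and 215 in clusters 3 and 4, and summed δ V segments at 1880 and 1493, 301 and 296, and 136 and 100. A γ segment was assigned to 378 WT and 586 KI cells of cluster 2, while 26.4% of WT cells had no segment over 50%. Trgv2 was the most frequent, in 62.7% and 64.3% of assigned cells. The share with Trgv2 was 86.7% and 85.4% of assigned cells in clusters 3 and 4, at a lower level, so that its share was not particular to cluster 2. Tcrg-V4, known from interleukin 17 cells of the adult thymus, followed with 21.2% and 17.2%, and Tcrg-V1 with 11.4% and 15.4%. Because Tcrg-V1, Trgv2 and Tcrg-V3 are related in sequence, reads may be split among them.

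Of δ segments, Trdv2-2 was assigned to 35.1% of 504 WT cells and 33.2% of 744 KI cells, Trdv5 to 27.4% and 25.1%, the pooled Trav15 (DV6) copies to 17.5% and 16.3%, Trdv1 to 9.33% and 12.2%, and Trav13-4-dv7 to 6.55% and 8.2%. Where both chains were assigned, Trgv2 with Trdv2-2 was the most frequent of the 6 pairs counted, in 22.9% of 323 WT and 22.2% of 474 KI cells, next to Trgv2 with Trdv5 in 21.4% and 20.9%. The binomial intervals of the 2 libraries overlapped for each of these segments.

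Cluster 2 was not uniform. Clustering its cells on variable genes without receptor genes, with values centred within each library, gave 5 subsets, each present in both genotypes. They are described by number and by genes, and since these genes made the subsets, their differences and the subsets' shares are a description. Subset 1 held 166 WT and 291 KI cells (27.9% and 29.8%), subset 2 171 and 228 (28.7% and 23.4%), subset 3 147 and 236 (24.7% and 24.2%), subset 4 75 and 147 (12.6% and 15.1%) and subset 5 36 and 74 (6.05% and 7.58%). Median UMIs per cell ran from 4319 in subset 2 to 12774 in subset 5 of WT, and from 3224 to 9861 in KI. With a finer resolution there were 8 subsets.

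**Figure D2:**
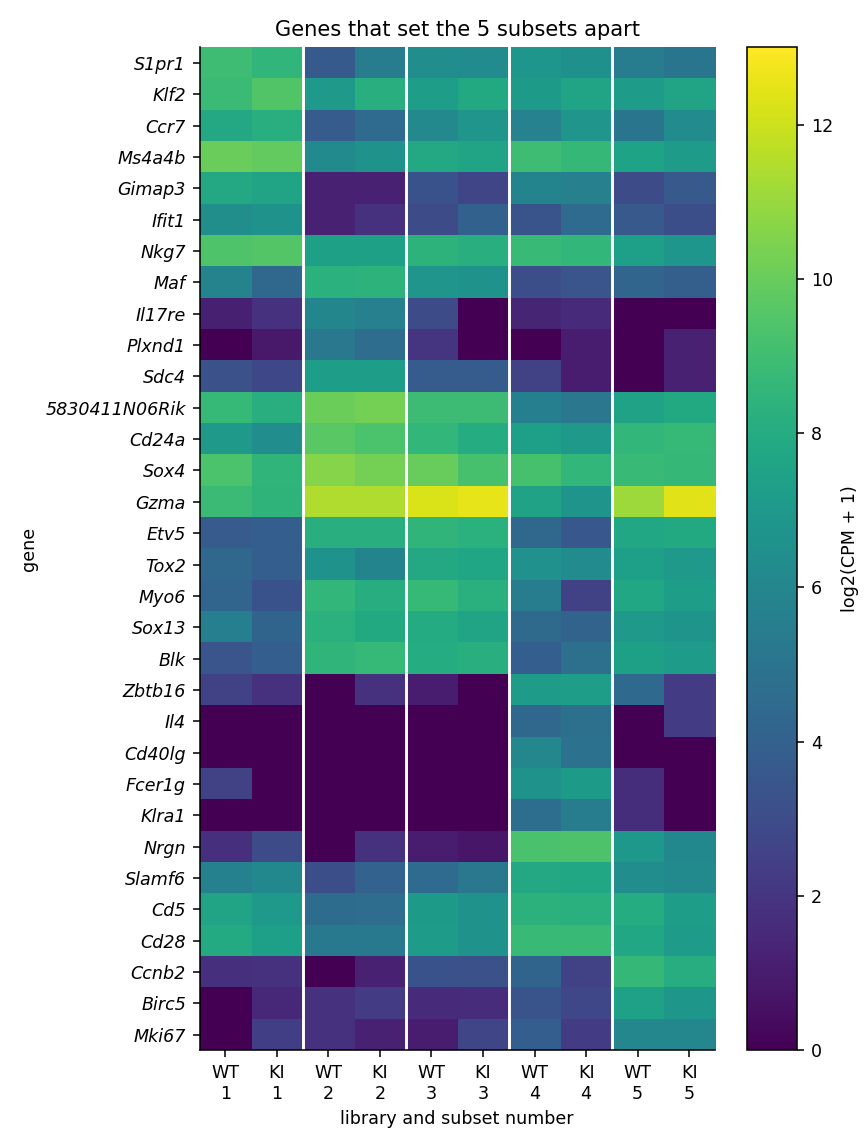
Heat map of 32 genes (rows) in the 5 subsets of each library (columns), coloured by log2(CPM + 1) of summed UMIs. S1pr1, Gimap3 and Ms4a4b are highest in subset 1, Maf and Cd24a in subset 2, Gzma and Etv5 in subset 3, Zbtb16, Nrgn and Cd40lg in subset 4 and Ccnb2 in subset 5, in WT and KI alike.

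Subset 1 was set apart by S1pr1, at 502 and 377 CPM against 11.6 to 113 in the other subsets of WT and 32.0 to 92.7 in those of KI. It was higher than the other subsets together in 155 of 5769 genes (2.69%) and lower in 137 (2.37%). Of 10 mature T cell genes 7 were higher, including Klf2, Ccr7 (229 and 281 CPM), Il7r, Ms4a4b (1058 and 955) and Gimap4. Its 10 leading genes held 5 interferon-inducible genes, Ifit1, Ifit3, Ifi213, Ifi27l2a and Slfn5; Ifi27l2a stood at 360 and 589 CPM against 37.7 and 86.3. The others were Gimap3 (226 and 194 against 17.3 and 17.1), Tdrp, Dapl1, Ly6c1 and the Notch modulator Dtx1. Cd24a, whose product marks immature γδ thymocytes, was lowest here, at 130 and 81.1 CPM. Sox13 (47.3 and 17.4 CPM), Maf, Myo6 and Blk were lower than in the rest of cluster 2, whereas Trdc was at its highest, at 724 and 649 CPM.

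Subset 2 was set apart by genes of the interleukin 17 programme. Of 5883 genes 252 were higher (4.28%) and 190 lower (3.23%). Of 16 interleukin 17 programme genes 8 were higher and 1, S100a4, lower; those higher included Maf (317 and 342 CPM against 58.4 and 41.7), Sox13 (318 and 235), Blk (369 and 424), 5830411N06Rik (1088 and 1245), Ckb, Icos and the receptor chain Il17re (62.1 and 48.9 against 3.06 and 1.15). Others among its leading genes were the semaphorin receptor Plxnd1, Sdc4 (150 and 156 CPM against 7.81 and 6.18), the transcription factor Hlf, Plekhf1, Nebl, Iqch, Gm12256 and Gm37552. Immature genes stood beside this programme: Cd24a was highest here at 816 and 643 CPM and Sox4 at 1572 and 1235, while 6 of 10 mature T cell genes were lower, S1pr1 (11.6 and 45.0) and Ccr7 among them. Il2rb stood at 0 and 5.29 CPM. Il23r, the receptor for interleukin 23, was at 0 UMIs in subset 2 of both libraries. Over all of cluster 2 it stood at 0 CPM in WT and 1.76 in KI.

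Subset 3 differed least, with 18 of 5669 genes higher (0.318%) and 94 lower (1.66%). Slc15a1 and then Gzma had the largest ratios. Gzma stood at 4850 and 5873 CPM against 1339 and 1844. After thinning a Gzma UMI was found in 89.4% and 93.2% of subset 3 cells, against 0.377% and 1.38% in cluster 5. That share was also high in subset 5 (77.8% and 95.9%), subset 2 (71.4% and 80.0%) and clusters 3 and 4 (77.4% and 71.9%). It was lower in subset 1 (25.3% and 24.9%) and subset 4 (17.1% and 7.91%). A high share was thus not particular to subset 3. The transcription factors Etv5 (367 and 311 CPM) and Tox2 (230 and 207) were higher, as were Myo6 (423 and 304), Slc15a1, Tuba8, Tktl1, Tmem121, Milr1 and the glucose transporter Slc2a3. Cd24a, at 383 and 265 CPM, lay between subsets 1 and 2.

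Subset 5 was set apart by genes of the cell cycle. Of 10 compared cycling genes 8 were higher and 0 lower; Ccnb2, cyclin B2, stood at 397 and 271 CPM against 6.71 and 4.84, and the survivin gene Birc5 at 170 and 115 against 3.05 and 3.23. Its other leading genes were Ccnb1, Mki67, Cenpf, Cenpe, Cdca3, Cdca8, Tpx2 and Gm4316. In all 127 of 5749 genes were higher (2.21%) and 262 lower (4.56%). Itgae, Samhd1 and Maf were lower, and Gzma stood at 2161 and 5386 CPM. In the deposited phase calls 4 of its 36 WT cells and 28 of its 74 KI cells were in G1. Cells called S phase lay in subset 4 as well, 20 of 75 in WT and 25 of 147 in KI, against 13 and 23 in subset 5.

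Subset 4 carried Zbtb16, the transcription factor of innate-like T cells, at 147 CPM in both libraries, against 4.56 and 1.95 in the other subsets together. After thinning a Zbtb16 UMI was found in a minority of subset 4 cells, 24.3% and 27.3%, and an Il4 UMI in 4.29% and 6.47%. The Zbtb16 share was at most 2.78% in any other subset. Of 5809 genes 137 were higher (2.36%) and 170 lower (2.93%). Among genes of γδ NKT cells 4 of 7 were higher: Zbtb16, Il4 (20.1 and 26.4 CPM), Cd40lg (63.3 and 28.3) and Slamf6 (232 and 223). Tnni1 (95.8 and 54.7 CPM), the Fc receptor γ chain Fcer1g (98.8 and 134 against 1.63 and 0), the Ly49 receptor gene Klra1, Nrgn (618 and 671 against 18.2 and 15.4), Ccr10, Hmga2, Tnfrsf9 and 9230105E05Rik led it. Cd5 (327 and 304 CPM), Cd6, Cd28 and Lef1 were higher too. Sox13 (21.6 and 16.6), Maf (7.72 and 9.76), Blk, Gzma (181 and 104) and 9 of 15 genes of the interleukin 17 list were lower. As in subset 1, Sox13, Maf and Myo6 among the 5 γδ T cell markers were lower than in the rest. Trdc stood at 318 and 376 CPM, and after thinning its share of 57.1% and 48.9% of cells was the lowest of the 5 subsets in both libraries, with an interval overlapping that of subset 5.

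Receptor contigs, which the clustering had not used, set subset 4 apart as well. A productive α contig was found in 12 of its 75 WT cells (16.0%, 8.55% to 26.3%) and 30 of its 147 KI cells (20.4%, 14.2% to 27.8%). In the other subsets together the share was 3.65% (2.21% to 5.65%) and 3.74% (2.55% to 5.27%), the intervals not overlapping in either library. A productive β contig was found in 26.7% and 36.1% of subset 4 cells against 17.5% and 15.6% of the others, the intervals overlapping in WT. Scrublet called 2 WT cells and 1 KI cell of subset 4 doublets. The median depth of subset 4, 8297 and 6649 UMIs, was above that of subsets 1 to 3, and the part of depth in these shares was not tested. Subset 5 had α contigs in 1 of 36 and 5 of 74 cells, with intervals that overlapped those of subset 4.

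**Figure D3:**
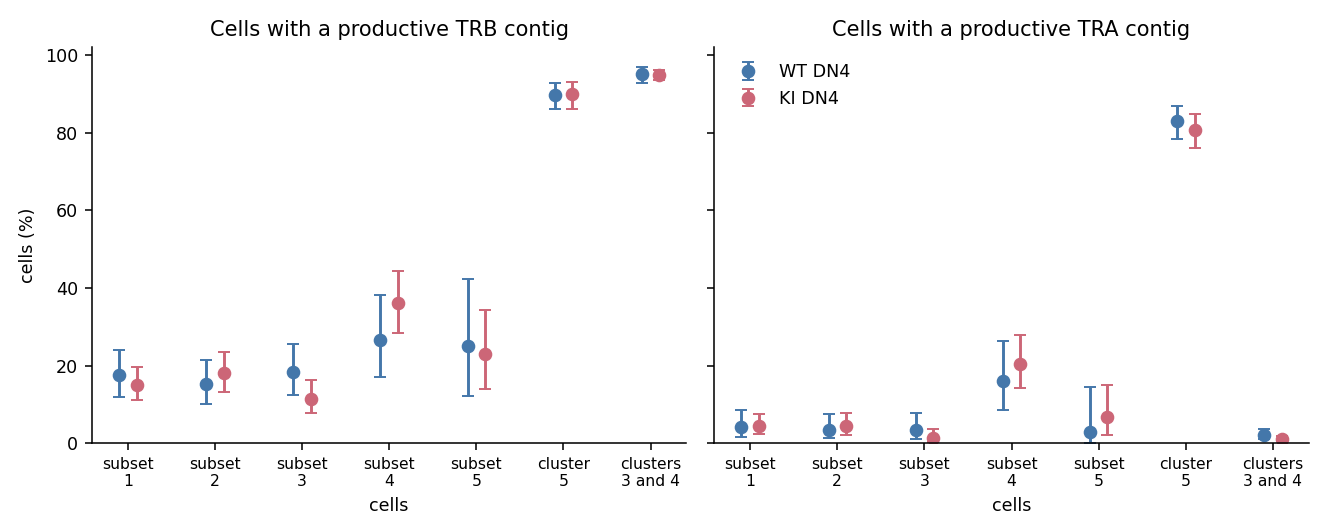
Share of cells (y axis, %) with a productive TRB contig (left) and a productive TRA contig (right) in the 5 subsets of cluster 2, in cluster 5 and in clusters 3 and 4 (x axis), with exact 95% binomial intervals, for WT (blue) and KI (red). Subset 4 has the highest TRA share within cluster 2, 16.0% and 20.4%, far under the 83.0% and 80.8% of cluster 5.

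Among these α contigs the join of TRAV11 to TRAJ18 recurred, the invariant chain of NKT cells. It was found in 14 DN4 cells, of which 12 lay in cluster 2 and 11 of those in subset 4, 2 of 75 in WT (2.67%, 0.325% to 9.30%) and 9 of 147 in KI (6.12%, 2.84% to 11.3%). In the other subsets 1 of 520 WT cells and 0 of 829 KI cells had it, the latter with an exact upper limit of 0.444%. The CDR3 sequences are shown because different sequences can come from separate rearrangements of the same V and J segments. There were 7 different ones, all 45 bases long, and capitals mark the 3 positions, 11, 12 and 15 from the first base, at which they differed.
found in 5 cells: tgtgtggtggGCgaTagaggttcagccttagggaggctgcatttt
found in 3 cells: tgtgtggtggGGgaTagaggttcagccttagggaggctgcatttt
found in 2 cells: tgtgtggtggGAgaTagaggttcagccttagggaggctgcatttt
found in 1 cell: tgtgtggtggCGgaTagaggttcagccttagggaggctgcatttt
found in 1 cell: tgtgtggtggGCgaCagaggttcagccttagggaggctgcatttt
found in 1 cell: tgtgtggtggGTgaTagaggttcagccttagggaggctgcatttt
found in 1 cell: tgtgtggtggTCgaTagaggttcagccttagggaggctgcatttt

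The first 10 to 13 bases of each were found in germline Trav11 and the last 30 to 34 in germline Traj18. Positions 11 and 12 thus lie at the join. Position 15 differed in 1 cell only and lies within the Traj18 match of the other sequences. Whether that change is a read error was not tested. The germline segments, from the GENCODE transcripts of GRCm38, are shown with the part shared with the most frequent CDR3 in capitals. Traj18 is annotated at chr14:54200777-54200842 and Trav11 at chr14:53519303-53519859, both on the plus strand.
Traj18: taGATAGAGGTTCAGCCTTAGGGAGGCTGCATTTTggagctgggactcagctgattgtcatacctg
Trav11, last 30 bases: acactgccacctacatcTGTGTGGTGGGCG

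In the deposited translation the 7 sequences gave 3 amino-acid sequences, and 12 of the 14 contigs shared 1 of them. The most frequent nucleotide sequence came from 2 WT and 3 KI cells, and the next from 2 WT cells and 1 KI cell. Of the 12 cluster 2 cells with this chain, 11 had 0 Trdc UMIs, 9 had 0 δ V UMIs, 10 had a Zbtb16 UMI and 6 an Il4 UMI. A productive β contig was found in 10 of them, with TRBV29 in 3, the joint call TRBV12-2+TRBV13-2 in 3, TRBV13-1 in 2, and TRBV13-3 and TRBV31 in 1 each. The 32 α contigs of KI subset 4 held 18 V and 17 J segments, and the 13 of WT subset 4 held 9 and 12. Apart from TRAV11 with TRAJ18, 2 α CDR3 sequences were seen in 2 cells each, both in KI subset 4, TRAV12D-3 with TRAJ26 and TRAV6-6 with TRAJ34. In WT cluster 2 all 32 α CDR3 sequences differed.

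Cells of subset 4 with a productive α contig and those with no contig differed in their γδ receptor genes and in the genes that define the subset. In the 12 WT and 30 KI cells with a productive α contig Trdc stood at 0 and 55.8 CPM, and in the 54 and 93 cells with no contig at all at 382 and 526. Tcrg-V1 stood at 18.1 and 91.3 CPM against 673 and 526, and Trdv5 at 0 and 5.07 against 371 and 354. The Trdc UMIs of the KI cells with an α contig all came from 1 cell. Other receptor genes were less far apart: Tcrg-C1 was 1.80-fold lower with an α contig in KI, Tcrg-C4 1.85-fold in WT and Trdv1 2.03-fold in KI. Trbc2 was lower with an α contig too, at 498 and 254 CPM against 1029 and 540. Trac, in turn, stood at 226 and 228 CPM against 91.8 and 136, less than 2-fold apart in KI. Subset 4 thus held cells with δ transcripts and no assembled contig beside cells with an α contig and few δ transcripts. The γδ label does not describe the latter. A missing contig does not show that the chain is absent. In cluster 5 a productive α contig was found in 83.0% and 80.8% of cells, not in all. Median depth in subset 4 was alike in WT, 8243 UMIs with an α contig and 8207 with no contig. In KI it was lower with an α contig, 5757 against 6596.

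Zbtb16 was present in both kinds of cell, at 308 and 335 CPM with an α chain and 107 and 83.9 without a contig, a log2 ratio of 1.52 (0.85 to 2.18) in WT and 2.00 (1.46 to 2.54) in KI. Il4 stood at 54.3 and 76.1 CPM with and at 10.9 and 10.7 without. Fcer1g, at 489 and 315 CPM against 19.7 and 56.5, Klra1, at 145 and 152 against 0 and 3.05, and Cd40lg, at 217 and 76.1 against 24.0 and 12.2, were each at least 4-fold higher with an α chain in both libraries. Egr2, which acts in NKT cell development, stood at 190 and 45.7 CPM against 15.3 and 9.16. In the other direction Nr4a1 stood at 136 and 173 against 572 and 595, Nkg7 at 109 and 244 against 529 and 421 (less than 2-fold apart in KI), and Cd24a at 27.1 and 25.4 against 197 and 165. Hmga2 (36.2 and 25.4 CPM against 10.9 and 24.4) and Cd5 (181 and 269 against 354 and 334) did not differ 2-fold in both libraries. The comparison was chosen after these data had been seen, and rests on 12 cells with an α chain in WT.

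**Figure D4:**
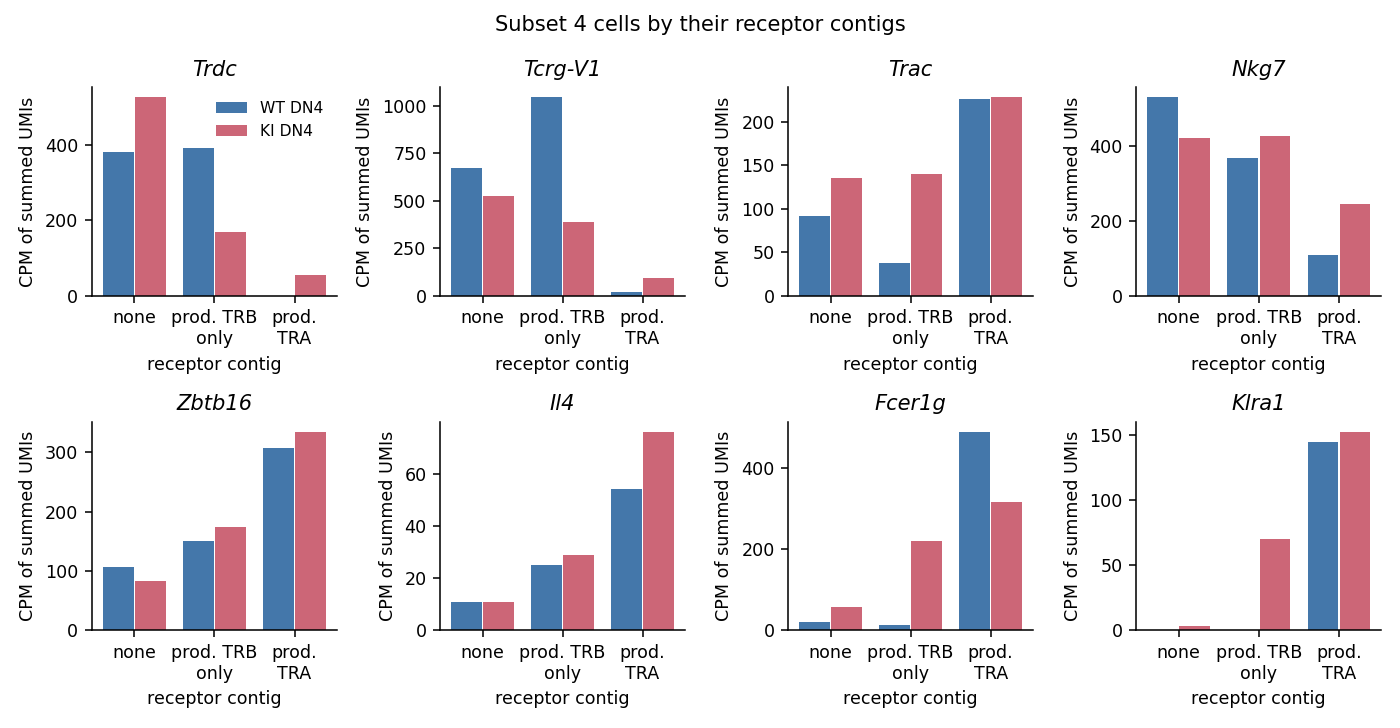
CPM of summed UMIs (y axis, from 0) of 8 genes in subset 4 cells with no receptor contig (54 WT, 93 KI), with a productive TRB but no productive TRA contig (9 and 24) and with a productive TRA contig (12 and 30), in WT (blue) and KI (red). Trdc and Tcrg-V1 are lowest and Zbtb16, Il4, Fcer1g and Klra1 highest with TRA.

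Outside subset 4, cells with a productive α contig kept Trdc at 271 CPM in 19 WT cells and 162 in 31 KI cells, and had 0 Zbtb16 UMIs in both libraries. A Trdc UMI was found in 9 of those 19 and 14 of those 31 cells, against 0 of 12 and 1 of 30 cells with an α contig in subset 4. Contigs that join a δ-named V segment (TRDV) to TRAJ and TRAC were found in 2 WT and 11 KI cells of cluster 2 (0.336% and 1.13%), and in 6 and 13 cells of cluster 5 (1.85% and 3.96%). Such a contig comes from an α rearrangement of a V segment named for the δ locus.

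V segments, also not used for the clustering, were taken up unequally by the subsets. Tcrg-V1 was assigned to 34.1% of 41 WT (20.1% to 50.6%) and 26.9% of 78 KI cells (17.5% to 38.2%) of subset 4, and to 4.67% of 107 (1.53% to 10.6%) and 8.33% of 120 (4.07% to 14.8%) of subset 2. Tcrg-V4 went the other way, with 29.0% and 22.5% in subset 2 and 4.88% and 14.1% in subset 4, the intervals overlapping in KI. The Trav15 (DV6) copies were assigned to 30.9% and 28.0% of subset 4 cells and 10.2% and 8.93% of subset 2 cells. Trdv2-2 was assigned to 18.2% and 15.1% in subset 4 and to 42.9% and 39.3% in subset 2. Tcrg-V1 with a DV6 segment, the pair known from γδ NKT cells, was assigned to 3 of 32 WT and 5 of 56 KI cells of subset 4 with both chains, and to 1 of 92 and 0 of 99 in subset 2, the intervals overlapping in both libraries. In subset 1 it was assigned to 4 of 86 and 12 of 140 cells, the latter 8.57% against 8.93% in KI subset 4, and in subset 3 to 4 of 91 and 2 of 138.

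The same held in cells without any αβ contig, where Tcrg-V1 was assigned to 33.3% and 27.9% of subset 4 and to 4.49% and 7.84% of subset 2. Subset 4 without its cells with a contig thus kept this difference from subset 2. In subset 1 the DV6 copies were assigned to 18.8% and 23.2% of cells, and Tcrg-V1 to 9.90% (4.85% to 17.5%) in WT and 22.6% (16.5% to 29.7%) in KI. Subset 3 had Tcrg-V4 in 21.9% and 22.4% and Trdv2-2 in 39.7% and 42.7% of assigned cells, close to subset 2.

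**Figure D5:**
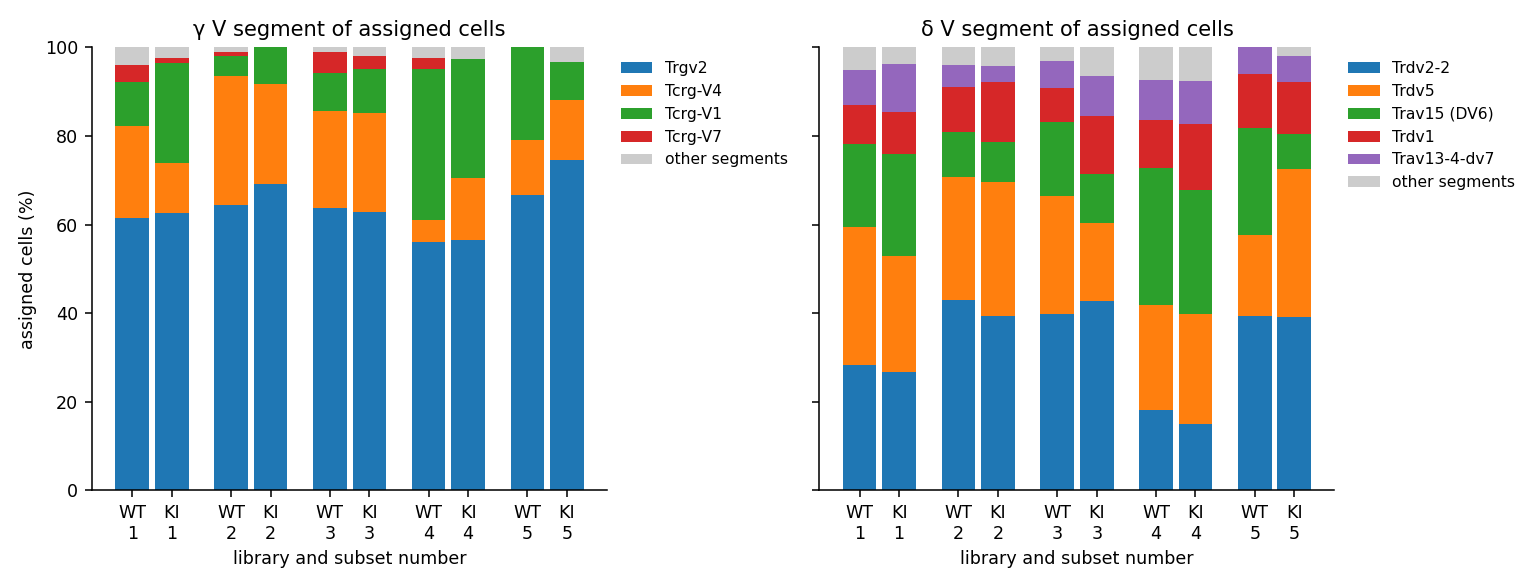
Share of assigned cells (y axis, %) by γ V segment (left) and δ V segment (right) in the 5 subsets of each library (x axis). Tcrg-V1 and the Trav15 (DV6) copies take larger parts of subset 4 than of subset 2 in WT and KI, and Trdv2-2 a smaller one.

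Between the genotypes cluster 2 differed in few genes. Of 5919 genes 11 were at least 2-fold higher in KI with an interval apart from 1 (0.186%), and 38 lower (0.642%); genotype, mouse and library cannot be told apart here. Of the higher genes, the proteoglycan gene Esm1 stood at 2.96 CPM in WT and 22.6 in KI. In subsets 2 and 3 its KI level was 45.0 and 34.7 CPM, against 1.29 and 1.94 in WT, and in the other 3 subsets the log2 ratio ran from 1.23 to 1.52. Hist1h1b, Ccnb1ip1, Sdhaf4, Atp5k (103 and 219 CPM), Ehd3, 1700097N02Rik and Gm28727 followed with log2 ratios from 1.02 to 1.27.

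Of the lower genes, Plcxd2 stood at 49.8 CPM in WT and 7.22 in KI, Slc38a2, an amino acid transporter, at 197 and 79.5, and Gm15340 at 28.5 and 7.42. Arhgap31, Cd96, Apobec3 and Ifi208 were lower as well. Slamf1 was lower too, at 27.7 and 10.5 CPM. None of the 5 γδ T cell markers (median log2 ratio −0.41), 17 receptor genes, 15 interleukin 17 genes or 10 mature T cell genes was called. Of 14 signal strength genes 4 were lower in KI: Egr1, Fos, Junb and Nr4a2. Hes1, a target of Notch, and Ctla4 were also lower, Hes1 at 78.8 and 35.3 CPM.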

How the data were processed

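The deposited files hold raw UMI counts of 15653 genes in 10237 cells of 4 5′ expression libraries, and reads and UMIs per receptor contig as counts; the submitters' processing notes name Cell Ranger 3.1.0 and 6.0.1 and the build mm10. The methods of cell filtering, clustering and phase calls, and any use of strand in counting, are not given in the sources used here. Cluster numbers and phases were taken as deposited. Doublets were called here by Scrublet on each DN4 library, and were left out only in the alternative named below. The members, gene lists and comparisons were chosen with earlier results of these data known.

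Counts of the WT and KI DN4 expression libraries, 16411164 and 30402236 UMIs in all and 3717284 and 5121898 in cluster 2, were summed per set of cells and scaled to CPM. A gene was compared where either set reached 20 CPM in both libraries. Ratios carry exact Poisson intervals (conditional binomial) and shares exact Clopper-Pearson intervals, both at 95%; a count of 0 was set to 3 counts for bounds. The ratios and their intervals were tried on simulated Poisson counts, the model on which the intervals rest. These counts held no variation between cells, mice or libraries, so the trial does not bear on such variation. Subsets came from scanpy 1.11.5 (1500 variable genes ranked over both libraries, without receptor, ribosomal protein, mitochondrial and Xist genes, 20 components, 15 neighbours, Leiden resolution 0.5, seed 0). For shares of cells with a UMI each cell was thinned to 3000 UMIs. Gene positions and germline segments are from GENCODE M21, GRCm38.

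Named genes were the 15 highest and 8 lowest called genes of each cluster comparison and the 10 highest of each subset. These were ranked by the smaller ratio of both libraries. Between genotypes they were the 8 highest and 8 lowest called genes, ranked by the KI to WT ratio. Receptor, immunoglobulin, ribosomal protein, mitochondrial and sex-linked genes were left out of these rankings. Members of the gene lists could be named as well. Egr2, Klra1 and the other genes set out by contig were chosen after their values were seen. Alternatives were a floor of 5 CPM, TMM scaling, G1 cells only, cells weighed alike, other clusterings, no thinning and leaving out doublets. Leaving out cells with α contigs, reading segments only in cells without contigs, and comparing subset 4 cells by contig were added after seeing the data. DN3 receptor libraries and clonotype tables were not used here.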

Additional observations from a re-analysis of the deposited data

How the results depend on the processing

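No paired analysis was possible because each group has 1 library, and for the same reason no library could be left out. With a floor of 5 CPM the numbers of genes higher in cluster 2 were 1507 against other DN4 cells, 431 against cluster 5 and 2016 against clusters 3 and 4, with 549 lower against cluster 5, and between genotypes 62 were higher and 124 lower in KI; more genes enter at that floor. With G1 cells only, 217 were higher and 227 lower against other DN4 cells, and 638 higher and 221 lower against clusters 3 and 4. With cells weighed alike 483 were higher than in other DN4 cells, and with TMM 1351 were lower than in clusters 3 and 4; the cause was not tested. The other 36 counts of genes stayed within 1.5 times, and 90 marker ratios, 60 segment shares and 24 contig shares kept their direction or moved within their error. At resolution 0.8 there were 8 subsets. The largest part of a subset held together was 60.4% of subset 4 and 67.1% of subset 3 there. At resolution 0.3 there were 5, but 75.7% of subset 4 cells lay in a subset of which they made up 26.8%. Without cycling genes and with G1 cells only, subset 5 made up 7.45% of the subset that held most of it. Of 25 shares of a subset's cells held together over these alternatives 13 moved, with values from 60.4% to 89.3%. Without thinning the shares of WT and KI cells with a UMI were 85.4% and 76.3% for Trdc, 47.1% and 33.0% for Sox13, and 38.2% and 28.3% for Maf. Counts under the 20 CPM floor, as of Il4 and Klra1 in parts of subset 4, rest on few UMIs.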

Other observations

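Of the 38 genes lower in KI than in WT cells of cluster 2, 5 lie on chromosome 16 (13.2%), which holds 195 of the 5874 compared genes with a position (3.32%): Arhgap31, Plcxd2, Cd96, Gm15340 and Hes1. Gsk3b, the gene changed in KI mice, is on the same chromosome, at 38089001 to 38246084 in GRCm38, with Arhgap31 at 38598340 to 38713274, Plcxd2 at 45959263 to 46010218, Cd96 at 46035657 to 46120251 and Gm15340 at 95900398 to 95901728. None of the 10 genes higher in KI with a position lies there. These genes were counted by chromosome after their values were seen, and genotype, mouse and library cannot be told apart.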
